A study of Mus musculus with 2 samples.

Results

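Dlk1 and Meg3 are neighbouring imprinted genes on mouse chromosome 12, and their probe sets were compared between 2 clones of mesoangioblasts, D351 and D16, one array for each. All probe sets annotated with exactly 1 gene symbol, Dlk1 or Meg3, were taken. That gave 2 of the 7542 genes named on the array and 5 probe sets, 1 for Dlk1 and 4 for Meg3, of 12411 that were not controls. Mesoangioblasts are vessel-associated progenitors that can form several kinds of mesodermal cell. Both clones were C57BL6 and came from explants of embryonic dorsal aorta taken at day 9.5, cultured for 5 days, then cloned by limiting dilution on mitomycin C-treated embryonic fibroblasts and later expanded on gelatin. The labels state no treatment of the clones and no genetic change. Each group is therefore a single clone with a single RNA sample on an Affymetrix MG-U74B array. No spread between cultures could be measured and no test was made. The pair was chosen because its members were known to differ between these arrays, so the differences below are descriptions.

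Dlk1 encodes a transmembrane protein with epidermal growth factor-like repeats, also known as Pref-1, which resembles the Notch ligands but lacks the domain by which those bind Notch receptors. It is transcribed from the paternal allele, and its shed extracellular part inhibits the differentiation of preadipocytes. Meg3, also called Gtl2, is a long non-coding RNA transcribed from the maternal allele. The maternal chromosome also gives Rian and Mirg, long RNAs that carry clusters of small RNAs, while the paternal one gives Dlk1, Rtl1 and Dio3. A methylated region between Dlk1 and Meg3 controls which parental chromosome transcribes which genes. These arrays measured total transcript and cannot tell the alleles apart.

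The start regions of the pair are shown because the transcripts differed in opposite directions. Each runs from 250 bases before to 50 bases after a RefSeq transcript start. Capitals mark TGACG, the core of the cAMP response element, on either strand, and TATAA within 35 to 15 bases before the start.
Dlk1 promoter, GRCm38.p6, plus strand, chr12:109452573-109452872: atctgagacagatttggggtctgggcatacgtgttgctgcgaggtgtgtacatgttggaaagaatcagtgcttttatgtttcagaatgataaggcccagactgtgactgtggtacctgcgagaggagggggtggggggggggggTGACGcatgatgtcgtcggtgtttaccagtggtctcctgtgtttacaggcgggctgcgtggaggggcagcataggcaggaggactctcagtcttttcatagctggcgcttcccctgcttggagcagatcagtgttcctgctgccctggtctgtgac
Meg3 promoter, GRCm38.p6, plus strand, chr12:109540746-109541045: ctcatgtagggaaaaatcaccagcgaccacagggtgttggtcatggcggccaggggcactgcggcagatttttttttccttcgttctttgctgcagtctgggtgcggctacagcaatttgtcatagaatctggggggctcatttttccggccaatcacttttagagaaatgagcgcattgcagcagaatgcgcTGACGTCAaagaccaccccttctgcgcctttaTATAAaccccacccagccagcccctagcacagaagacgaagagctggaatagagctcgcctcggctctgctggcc
The Dlk1 region held 1 TGACG, starting 106 bases before the start, and no TATAA in that window. The Meg3 region printed, at the first RefSeq start of the gene, held the full palindrome TGACGTCA, starting 57 bases before the start, in which TGACG on one strand overlaps its match on the other. It also held TATAA, starting 25 bases before the start. Among 32851 RefSeq start regions of the same length, 20.8% held TGACG, 1.79% held TGACGTCA and 3.17% held TATAA in that window. The hexamer TGCCGC, bound when methylated by the imprint-protecting zinc finger protein ZFP57, was searched on both strands. It occurred in the Meg3 region, was not in these letters of Dlk1 and was found in 11.6% of all start regions. CpG dinucleotides numbered 9 in the Dlk1 region and 13 in the Meg3 region, against a median of 7. RefSeq lists another Meg3 start, further along the gene (chr12:109545148-109545447, not printed), whose region held none of these motifs and 1 CpG. These matches describe letters and not occupied sites.

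On the arrays, the Dlk1 signal was lower and the Meg3 signal higher in D351. The deposited values are linear intensities. A floor of 16.8, the 50th percentile of the pooled values of both arrays, was set, and values under it were raised to it before ratios were taken. Where only 1 array reached the floor the ratio is a bound, and where neither did no ratio was taken. The floor was reached on at least 1 array by 3 of the 5 probe sets, Dlk1 108265_at and Meg3 164148_at and 109661_at.

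Dlk1 108265_at read 12.2 in D351 and 69.1 in D16. The signal was under the floor in D351 and over it in D16. The log2 ratio of D351 over D16 was at most -2.04, which makes Dlk1 at least 4.11-fold lower in D351. Of the 6920 probe sets at the floor on at least 1 array, 74 (1.07%) had a ratio this low or lower. The pair was chosen on these ratios, so nothing is read from this rank. No other probe set measured Dlk1, so its value rests on a single design. In RNA from a whole culture, fewer cells with a transcript and less transcript per cell cannot be told apart.

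Meg3 164148_at, its brightest probe set, read 55.9 in D351 and 8.0 in D16. It was over the floor in D351 and under it in D16, and was at least 3.33-fold higher in D351 (log2 ratio at least 1.73). A ratio as high or higher was found for 162 probe sets (2.34%), a rank from which nothing is read either. Meg3 109661_at read 20.1 in D351 and 2.2 in D16. It barely passed the floor, in D351 only, so its ratio could be bounded only at 1.20-fold or more (log2 at least 0.26).

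The other Meg3 probe sets were under the floor on both arrays. Meg3 107512_at read 13.5 in D351 and 1.9 in D16, and Meg3 165360_i_at read 5.8 in D351 and 4.7 in D16. All 4 Meg3 readings were thus higher in D351, but only 164148_at differed by 2-fold or more after the floor was applied. Of 128 genes with 4 probe sets, 18 (14.1%) read higher in D351 on all 4 and 13 (10.2%) read lower on all 4, counted on the deposited values without a floor.

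**Figure D1:**
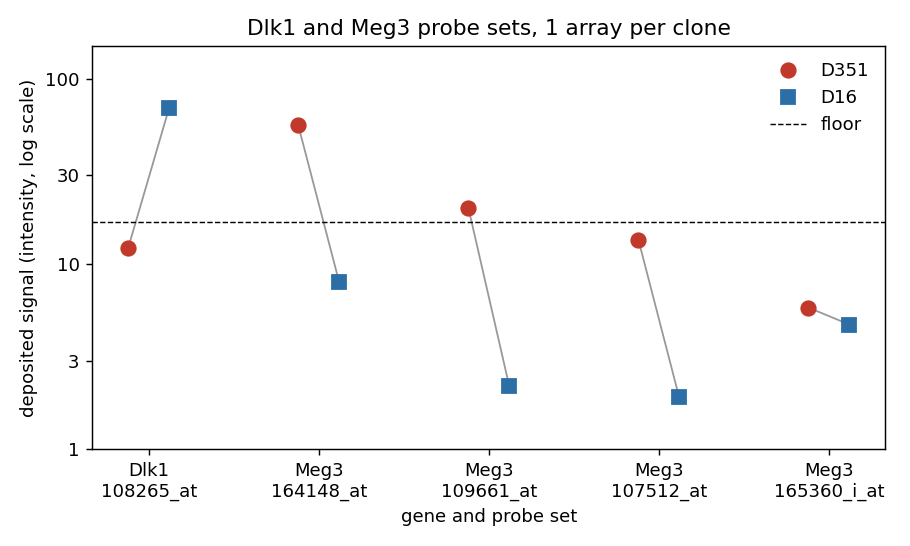
Deposited signal (intensity, log axis) of the 5 probe sets, with D351 as a circle to the left and D16 as a square to the right, and the floor of 16.8 as a dashed line. Dlk1 lies under the floor in D351 (12.2) and over it in D16 (69.1), while the 4 Meg3 probe sets lie higher in D351, from 55.9 against 8.0 to 5.8 against 4.7.

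A rule of at least 2-fold, applied where 1 or both arrays reached the floor, was met by 1 of 1 Dlk1 probe sets, lower in D351, and by 1 of 4 Meg3 probe sets, higher in D351. Over the whole array it was met by 17.2% of the 6920 measured probe sets, of which 9.23% were higher and 7.99% lower in D351. Since the pair was chosen on these ratios, nothing is read from its share. The log2 ratio of Meg3 minus that of Dlk1 was at least 3.77 between the brightest probe sets, a difference of at least 13.7-fold between the ratios. Neither gene was far over the floor. With the floor raised to the 75th percentile (53.5) the log2 bounds became 0.063 for Meg3 and -0.37 for Dlk1, and neither met the rule.

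**Figure D2:**
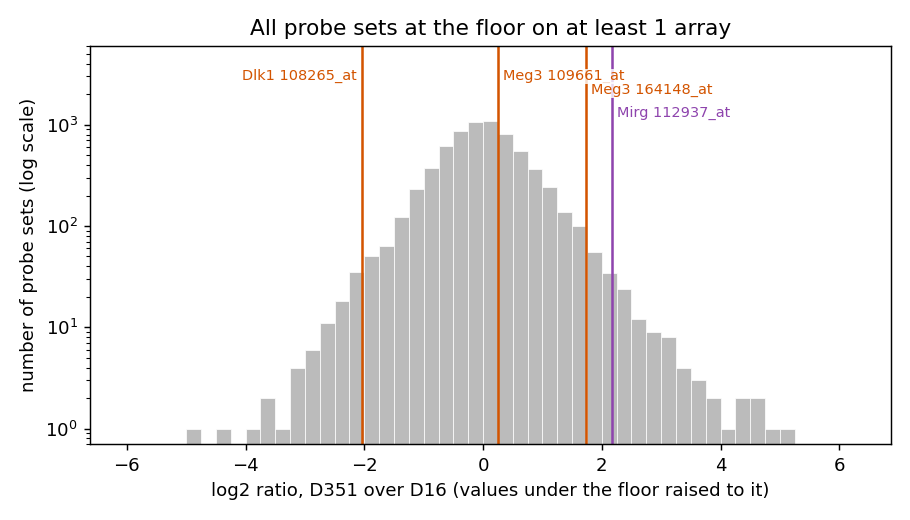
Histogram of log2 ratios of D351 over D16 for the 6920 probe sets at the floor on at least 1 array (count on a log axis). Vertical lines mark Dlk1 at -2.04, Meg3 at 0.26 and 1.73, and Mirg at 2.18, all of them bounds.

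The third gene of the imprinted domain with a ratio was Mirg, the distal maternally expressed long RNA. Mirg read 76.1 in D351 and 2.7 in D16 on its 1 probe set, 112937_at. Like Meg3 it was over the floor in D351 and under it in D16. It was at least 4.53-fold higher in D351 (log2 at least 2.18). With the floor at the 75th percentile its log2 bound was 0.51, short of 2-fold. Rtl1, a retrotransposon-derived gene of the paternal allele that is needed in placenta, read 16.5 in D351 and 10.5 in D16, under the floor on both, so no ratio was taken. With the floor at the 25th percentile (4.6) its log2 ratio was 0.65, the direction of Meg3 and not of Dlk1. The RefSeq spans of Rtl1 and Meg3 overlap by 6830 bases, and the strand read by these probe sets was not given in the sources used here. Rian, Dio3 and Begain, the remaining named genes of the domain, were not analysed here. Among the genes of the domain with a ratio, the maternally expressed Meg3 and Mirg were higher and the paternally expressed Dlk1 lower in D351, while the reading of Rtl1, also paternally expressed and under the floor, was higher in D351.

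Both long RNAs enclose miRNA genes, which these probe sets do not measure. The RefSeq table (GRCm38.p6) places 3 mature miRNAs inside the Meg3 span and 19 inside that of Mirg. A choice is shown to identify what the transcripts host, with the seed (bases 2 to 8) in capitals. The first pair lies in Meg3 and the others in Mirg.
miR-770-5p: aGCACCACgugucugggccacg
miR-770-3p: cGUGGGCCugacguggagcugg
miR-453: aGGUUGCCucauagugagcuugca
miR-496a-5p: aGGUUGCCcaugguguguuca
miR-409-3p: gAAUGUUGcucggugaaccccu
miR-410-3p: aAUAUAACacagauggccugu
miR-369-3p: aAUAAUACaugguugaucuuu
The miRNAs miR-453 and miR-496a-5p share the seed GGUUGCC. No other seed was shared among the 22 miRNAs of these spans.

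Genes listed as markers of embryonic fibroblasts, the feeder cells of the cloning step, were higher in D351. Of 18 markers, 4 were on the array, and all 4 were at least 2-fold higher in D351, against 9.49% of all measured genes. The list was drawn up with earlier results of these data known, so nothing is read from that share. The summed signal of the 4 genes was 1448.5 in D351 and 444.8 in D16. Aspn, a matrix proteoglycan, read 177.4 in D351 and 3.6 in D16. Prrx1, a mesenchymal transcription factor, read 546.8 in D351 and 149.3 in D16. Col5a2, a collagen chain, read 60.1 in D351 and 12.4 in D16, and Cd248, a stromal surface protein, read 564.0 in D351 and 238.9 in D16. Prrx1 and Cd248 were over the floor on both arrays. For these genes, expression by the clones and RNA of feeder cells cannot be told apart. Whether feeder RNA had a part in the Meg3 or Mirg values was not tested. The summed signal of smooth muscle markers (5 of 11 on the array) was 2461.9 in D351 and 1508.1 in D16. Most of each sum came from Cald1, which read 1357.6, 440.5 and 417.7 in D351 and 874.9, 276.4 and 282.6 in D16. These probe sets were 1.55-, 1.59- and 1.48-fold higher in D351. Mylk, the myosin light chain kinase, read 148.5 in D351 and 21.1 in D16 on its brightest probe set (7.04-fold higher). Its others read 50.9 in D351 and 1.1 in D16, and 1.9 in D351 and 3.1 in D16, the last under the floor on both arrays. Myh11, the smooth muscle myosin heavy chain, read 35.6 in D351 and 36.8 in D16. For endothelial markers (3 of 12) the sum was 57.8 in D351 and 29.3 in D16. It rested on Flt1, a VEGF receptor, which read 44.5 in D351 and 10.3 in D16 (at least 2.65-fold higher), with Eng and Esam under the floor on both arrays. For pericyte markers (3 of 7) the sum was 40.0 in D351 and 93.4 in D16. It rested on Cspg4, a surface proteoglycan, which read 26.1 in D351 and 83.3 in D16 (3.19-fold lower), and the other 3 of the 4 pericyte probe sets did not reach the floor on either array. None of the blood and mesoangioblast markers on the lists was analysed here, so the labelled cell type could not be checked on its own markers.

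Outside the domain, most neighbouring genes read somewhat lower in D351. The 10 nearest genes on the array were taken on each side of the pair in RefSeq order. These 20 genes include Rtl1 and Mirg of the domain. Of the 20 genes, 14 reached the floor and 4 (28.6%) met the 2-fold rule, or 3 of 13 without Mirg. The rule was met by 18.1% of the 4922 measured genes of the array (9.49% higher and 8.57% lower in D351). Mirg was higher and 3 were lower in D351. On the Dlk1 side, Eml1, a microtubule-binding protein and the nearest gene with a ratio, read 106.1 in D351 and 226.9 in D16 (2.14-fold lower, log2 -1.10). Snhg10, a small nucleolar RNA host gene, read 12.7 in D351 and 48.7 in D16, at least 2.90-fold lower. On the Meg3 side, Ankrd9, an ankyrin repeat protein, read 26.2 in D351 and 77.2 in D16, 2.95-fold lower (log2 -1.56).

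The other neighbours stayed within 2-fold. Ppp2r5c, a regulatory subunit of protein phosphatase 2A and the next measured gene beyond Mirg, read 211.1 in D351 and 350.5 in D16 on its brightest probe set (log2 -0.73), with log2 ratios of -0.65, 0.55 and -0.04 on others. Ccnk, a cyclin that works with transcription-elongation kinases, read 342.2 in D351 and 477.4 in D16 (log2 -0.48). On the brightest probe sets the remaining ratios were -0.22 for Clmn, 0.03 for AU015791, 0.08 for Atg2b and -0.27 for Gskip. They were -0.28 for Papola, -0.42 for Wdr20, -0.61 for Tecpr2 and 0.16 for Rcor1. Other measured probe sets gave at most -0.56 for Clmn, 0.51 for Atg2b, -0.40 for Gskip and 0.08 for Rcor1. Bcl11b, Setd3, Rtl1, 1700001K19Rik, Hsp90aa1 and Amn were under the floor on both arrays. Without Mirg the 13 measured neighbours, on their brightest probe sets, had a median log2 ratio of -0.42, with 10 below 0 and a highest value of 0.16. The median was -0.11 over 186 measured genes of chromosome 12, with 101 below 0. Over all measured genes the median was -0.01, with 48.8% above 0.

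**Figure D3:**
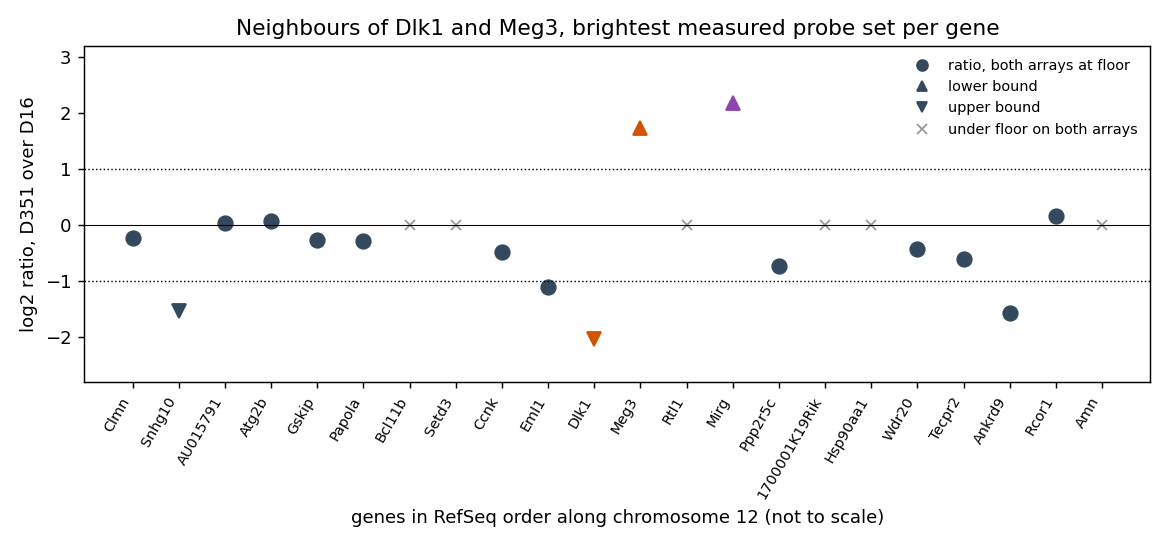
Log2 ratio of D351 over D16 for Dlk1, Meg3 and their 10 nearest genes on each side, in RefSeq order and not to scale. Each gene is shown on its brightest measured probe set. Triangles are bounds, crosses are genes under the floor on both arrays, and dotted lines mark 2-fold. Meg3 (1.73) and Mirg (2.18) lie above the upper line, and the other neighbours with a ratio range from -1.56 to 0.16.

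A list of imprinted genes from the whole genome was set beside the pair. Of its 82 genes, 21 were on the array and 13 reached the floor. Dlk1, Meg3, Mirg and Slc38a4 met the 2-fold rule, 3 of them higher and 1 lower in D351. Without the chosen pair it was met by 2 of 11, both higher in D351, against 18.1% of all measured genes. Slc38a4, an amino acid transporter expressed from the paternal allele, read 39.4 in D351 and 7.0 in D16, at least 2.35-fold higher. Gatm, a creatine-synthesis enzyme imprinted in placenta, read 33.5 in D351 and 1.8 in D16 on a probe set with the ending _f, used where probes match a family of transcripts, with a bound (at least 1.99-fold) just short of the rule.

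The paternally expressed transcription factor Plagl1 read 19.6 in D351 and 34.8 in D16 (log2 -0.83, an _r probe set). Airn, the long non-coding RNA of the Igf2r domain, read 14.2 in D351 and 20.4 in D16 (at most -0.28). Like Plagl1 and Slc38a4 it is transcribed from the paternal allele, so paternally expressed genes lay on both sides of 0. The median of the 11 without the pair was 0.27, with 7 above and 4 below 0, while 48.8% of all measured genes were above 0. Igf2, H19, Cdkn1c and Grb10 were not analysed here.

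Dlk1 is counted with the Notch pathway, of which 24 of 58 listed genes were on the array and 21 reached the floor. Dlk1 was the 1 gene of these 21 that met the 2-fold rule, and 0 of the other 20 did, against 18.1% of all measured genes. Dlk1 itself was chosen for its ratio. Among ligands, Dlk2, the closest relative of Dlk1, read 52.1 in D351 and 29.2 in D16 (log2 0.84), the direction opposite to Dlk1. Jag1, a canonical ligand, read 77.2 in D351 and 101.7 in D16 (log2 -0.40), and Dll4 and Dner were under the floor on both arrays. Of the enzymes that act on receptors, the fringe glycosyltransferase Lfng read 18.3 in D351 and 33.0 in D16 (log2 -0.85), and the fucosyltransferase Pofut1 read 77.9 in D351 and 50.5 in D16 (log2 0.63).

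In the nucleus, Rbpj, the DNA-binding factor of the pathway, read 291.0 in D351 and 558.7 in D16 (log2 -0.94), and the coactivator Maml2 read 35.8 in D351 and 18.4 in D16 (log2 0.96). Apart from these nuclear factors, the ubiquitin ligase Mib2 read 126.3 in D351 and 67.5 in D16 (log2 0.90). Mib1, another ubiquitin ligase, went the other way on its brightest probe set, with 204.6 in D351 and 290.3 in D16 (log2 -0.50). Nrarp, a target and inhibitor of the pathway, was under the floor on both arrays. Without Dlk1, 14 of the 20 ratios were above 0, with a median of 0.40. Over all measured genes 48.8% were above 0, with a median of -0.01. The Notch receptors, Dll1, Hes1 and Hey1 were not analysed here.

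Genes listed for imprint control, among them DNA methyltransferases and readers, gave 11 measured genes of 34 listed. Of these, 1 met the rule, against 18.1% of all measured genes. Atrx, a chromatin remodeller, read 125.6 in D351 and 53.3 in D16, 2.36-fold higher. Dnmt3a, a de novo methyltransferase, read 57.0 in D351 and 43.2 in D16 (log2 0.40). Hells, a remodeller needed for DNA methylation, read 0.6 in D351 and 26.4 in D16 (log2 at most -0.65). The median of the 11 was -0.30.

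Polycomb proteins, which repress chromatin, gave 9 measured genes of 32 listed, with a median log2 ratio of 0.57. Of these, 2 met the rule, a share near the 18.1% of all measured genes. Phc3 read 252.3 in D351 and 85.4 in D16, 2.95-fold higher. Cbx6 read 239.9 in D351 and 101.3 in D16, 2.37-fold higher, with log2 0.56 on another probe set. Dnmt1, Ctcf and Ezh2 were not analysed here.

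Adipocyte differentiation genes, listed because Dlk1 inhibits that process, went both ways. Of 15 measured genes of 43 listed, 1 was at least 2-fold higher and 3 were at least 2-fold lower in D351, and the median of their log2 ratios was 0.28. Over all measured genes the shares were 9.49% higher and 8.57% lower. Lpin1, a phosphatidate phosphatase, read 55.3 in D351 and 15.6 in D16, at least 3.29-fold higher. The transcription factor Cebpg read 70.2 in D351 and 253.6 in D16, 3.61-fold lower. Sox9, which shed Dlk1 is known to induce in mouse preadipocytes, read 58.1 in D351 and 125.3 in D16, 2.16-fold lower, with log2 -0.49 on another probe set. Whether Dlk1 had a part in the Sox9 values was not tested. Acacb, an acetyl-CoA carboxylase, read 14.0 in D351 and 34.7 in D16, at least 2.07-fold lower.

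**Figure D4:**
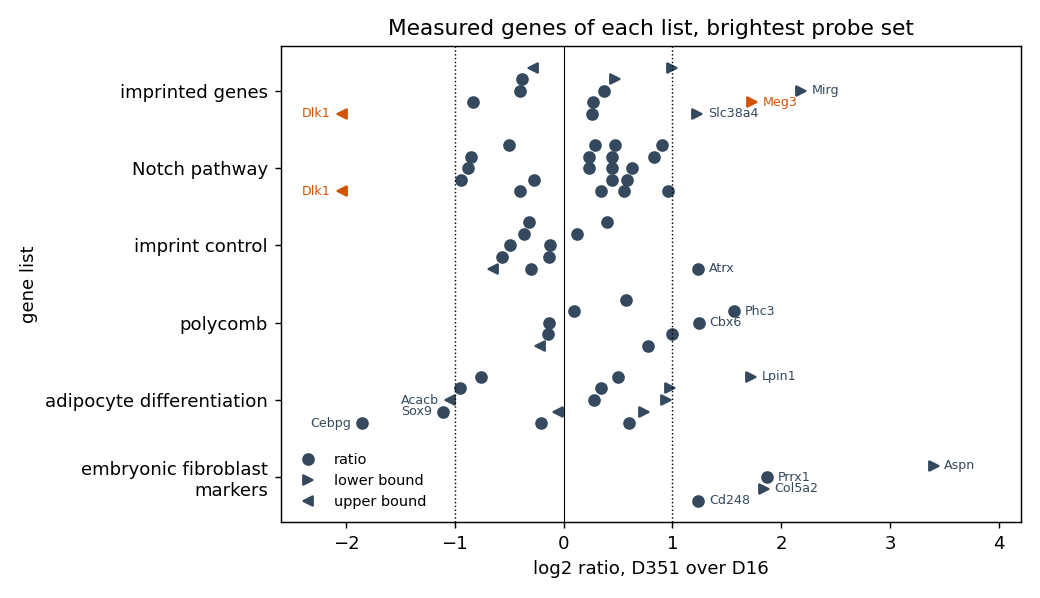
Log2 ratio of D351 over D16 for the measured genes of each list, 1 point per gene on its brightest probe set. Dlk1 and Meg3 are in orange, left- and right-pointing triangles are bounds, dotted lines mark 2-fold, and genes past it are named. Within the Notch list only Dlk1 (-2.04) lies outside the dotted lines, and the 4 fibroblast markers lie between 1.24 and 3.40.

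Genes most like the pair were found by the distance between log2 signals, after the floor, over the 2 arrays. Closest to Dlk1 were Gas7 (1.7 in D351 and 71.3 in D16), Irx2 (15.1 in D351 and 71.6 in D16) and Neto2 (16.7 in D351 and 72.0 in D16), within a distance of 0.06. Closest to Meg3 164148_at were Crebl2 (55.8 in D351 and 12.8 in D16), Trappc13 (56.4 in D351 and 15.6 in D16) and Lpin1 (55.3 in D351 and 15.6 in D16), within 0.02. Meg3 109661_at coincided, at a distance of 0, with Lratd2, Arvcf and Htra3, each at 20.1 in D351 and under the floor in D16. With 2 arrays such likeness states only similar values.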

How the data were processed

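Total RNA of clones D351 and D16 was hybridised to 1 array each. The deposited values are linear intensity values per probe set as the authors processed them; their software, background correction and scaling are not stated in the labels or the table. Both arrays had similar totals (646285 in D351 and 653854 in D16) and quartiles, so values were used as deposited, and a shift common to all genes would go unseen. The 66 control probe sets were left out. Of the bacterial hybridisation controls, 9 reached the floor on both arrays, and 8 of these were lower in D351, with a median 1.44-fold lower. Scaling to these controls was not tried.

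Gene names came from GEO's platform annotation, in which 10581 probe sets had 1 symbol, 178 had several and 1652 were unnamed here. Gene order, start regions and miRNAs came from NCBI RefSeq, GRCm38.p6, matched by symbol or gene identifier. The array values name no genome build, and coordinates are given only for RefSeq sequences.

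A gene was represented by its measured probe set with the highest mean signal. The members and lists were chosen with earlier results of these data known. From each list up to 4 genes past 2-fold were named. All neighbours, and core genes such as Jag1 and Rbpj where they could be analysed, were named at any value. The 3 most similar probe sets per measured member were also named. Other list members illustrate a role, and were chosen after their values were seen. The ratio calculation was tested on simulated data. Alternatives were 2 scalings (common median, quantile), loess (span 0.3), a floor at the 25th (4.6) or the 75th percentile (53.5), rules of 1.5-fold and 3-fold, the median over probe sets and plain _at probe sets only. Python 3.11.15, numpy 2.4.6, pandas 2.3.3 and statsmodels 0.14.6 were used. With 1 array per clone, their number limits the precision and no p-value or standard error was computed.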

Additional observations from a re-analysis of the deposited data

How the results depend on the processing

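Dlk1 stayed lower and Meg3 higher in D351 under each scaling and loess, but the sizes are bounds set by the floor. A floor is applied to both arrays and cannot reverse a direction, so the floors tried bear only on size. With a common median the log2 ratios were -2.05 for Dlk1 and 1.73 for Meg3, and after loess -2.05 for Dlk1 and 1.73 for Meg3, with a gap between them of 3.78. With the floor at the 25th percentile, where both arrays reached it, they were -2.50 for Dlk1 and 2.80 for Meg3, with a gap of 5.31, and Meg3 109661_at, 107512_at and 165360_i_at had 2.13, 1.55 and 0.30, the first 2 as lower bounds. With the floor at the 75th percentile they were -0.37 for Dlk1 and 0.063 for Meg3, with a gap of 0.43, and neither reached 2-fold.

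Counts past the rule at that higher floor were 1 neighbour (4 as reported), 0 imprinted genes (4), 0 Notch genes (1), 2 adipocyte genes (4) and 4 markers (7). At the lower floor they were 7 imprinted, 3 imprint control (1 as reported) and 8 adipocyte genes. At 1.5-fold they were 8 Notch, 2 imprint control, 4 polycomb (2 as reported) and 10 adipocyte genes, and at 3-fold 1 neighbour, 0 imprint control, 0 polycomb and 2 adipocyte genes. The median over probe sets left 1 polycomb gene. The share over all measured genes was taken only for the 2-fold rule at the floor of 16.8. Nothing is therefore read from the counts at other settings. Ratios of Meg3 109661_at and of other named genes on their brightest probe set were also followed. Under both scalings and loess 43 of 43 kept their direction, but the arrays had similar quartiles, so these settings moved values little. The same held for 43 of 43 at the lower floor and 27 of 27 that could be measured at the higher floor. That outcome was fixed, since a floor cannot reverse a direction. No paired analysis was possible because each clone had 1 array. Without replicate arrays, spread between cultures cannot be told apart from a difference between clones.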
